A study of Rattus norvegicus with 20 samples.

Results

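Glutathione transferases were followed across the fetal rat testis arrays through 10 listed genes: Gsta2, Gsta3, Gsta4, Gstm1, Gstm2, Gstm3, Gstp1, Gstt1, Gsto1 and Mgst1. Members were found by the gene name printed in the array files, and 9 of the 10 genes had a probe, giving 10 probes of the 41012 on the array. Gsta2 had 2 probes, and no probe carried the name Gsta4, so Gsta4 was not analysed here under its own name. The members were chosen by their array signal: Gsta2 was the gene furthest below control with DEHP and MEHP, so every value of the members in those comparisons is a description and carries no test.

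These enzymes join the tripeptide glutathione to reactive, fat-soluble molecules, which are then pumped out of the cell and broken down. The cytosolic enzymes fall into classes named alpha, mu, pi, theta and omega, and microsomal members such as Mgst1 sit in membranes and belong to a separate protein family. Alpha class enzymes also carry out a double bond isomerisation on steroid intermediates and are abundant in steroid-making cells of several mammals.

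Pregnant Han Wistar rats were gavaged daily on gestation days 12 to 19 with corn oil or with 500 mg/kg of DEHP, MEHP, TOTM or a compound labelled only EHO, which is not identified further here. DEHP is the plasticiser di(2-ethylhexyl) phthalate, MEHP is its monoester, and TOTM is tris(2-ethylhexyl) trimellitate, a triester with the same side chain alcohol. Doses were matched by mass, not by mole. Each group had 4 arrays. RNA for an array came from the pooled testes (6 or more) of at least 3 male littermates, so an array stands for 1 litter and the p-values measure only the spread between these pools.

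Promoter windows are shown for 4 members. These are Gsta2, the members whose level correlated most with it (Gsto1 and Gsta3), and Gstm1, whose level did not follow it. Mgst1, which correlated less (r = 0.71), had a window with 0 motif matches and is not shown. Each window is the 250 bases before the annotated start, 5' to 3', from RefSeq on build GRCr8, and 8 of the 9 members with a probe had a window (Gstt1 had none). The Gsta2 window is chr8:88077093-88077342, minus strand. The Gsta1 window, for the probe that the files call Gsta3, is chr9:31216533-31216782, minus strand. The Gsto1 window is chr1:256662281-256662530, plus strand, and the Gstm1 window is chr2:198343384-198343633, minus strand. Capitals mark matches, on either strand, to the searched motifs that are spelled out after the sequences.
Gsta2: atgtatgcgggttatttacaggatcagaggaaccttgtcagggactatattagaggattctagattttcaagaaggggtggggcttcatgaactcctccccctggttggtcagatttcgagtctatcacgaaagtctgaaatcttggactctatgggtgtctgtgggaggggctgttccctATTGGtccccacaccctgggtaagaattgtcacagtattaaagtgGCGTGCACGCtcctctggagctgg
Gsta1: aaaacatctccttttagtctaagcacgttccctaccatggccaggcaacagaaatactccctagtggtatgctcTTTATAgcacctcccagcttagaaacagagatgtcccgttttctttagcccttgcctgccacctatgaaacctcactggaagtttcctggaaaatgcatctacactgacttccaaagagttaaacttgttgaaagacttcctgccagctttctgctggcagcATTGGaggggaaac
Gsto1: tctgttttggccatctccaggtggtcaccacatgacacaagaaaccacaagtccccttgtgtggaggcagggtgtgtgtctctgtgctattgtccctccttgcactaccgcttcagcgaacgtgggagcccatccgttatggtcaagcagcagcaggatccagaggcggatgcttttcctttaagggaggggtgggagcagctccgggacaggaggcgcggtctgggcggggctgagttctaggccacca
Gstm1: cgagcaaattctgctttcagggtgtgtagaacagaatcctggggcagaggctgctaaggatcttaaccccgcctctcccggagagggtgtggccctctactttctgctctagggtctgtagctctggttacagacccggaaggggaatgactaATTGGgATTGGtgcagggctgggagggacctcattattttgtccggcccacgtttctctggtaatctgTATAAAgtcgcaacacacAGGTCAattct

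The antioxidant response element core TGACNNNGC, the site through which Nrf2 is known to act on many of these genes, matched 2 of the 8 member windows (Gstp1 and Gstm7, the current symbol of the probe called Gstm3) and 10.1% of 33469 rat windows. The xenobiotic response element core GCGTG matched Gsta2 and Gstp1 and 25.9% of all windows. In Gsta2 it lay once on each strand, at -24 to -20 and at -19 to -15 from the start. The nuclear receptor half-site AGGTCA matched Gstm1 alone, against 14.1% of windows, and its extended form CAAGGTCA, which contains AGGTCA and is bound by SF-1, matched 0 of the 8 and 1.33% of all windows. CCAAT matched 5 of the 8 members and 34.0% of windows. TATAAA matched Gsta1 and Gstm1 and 12.9% of windows. The Gsto1 window held none of these letters, which says nothing of sites outside it.

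The probes lie, on the rn4 build of the array design, at chr8:83302934-83302993 (Gsta2 probe 1) and chr8:83299283-83299342 (Gsta2 probe 2), with both Gsta2 probes on the minus strand. The mu probes lie at chr2:203575796-203575855 (Gstm1), chr2:203551176-203552101 (Gstm2) and chr2:203491529-203491588 (Gstm3). The others lie at chr1:206629144-206629301 (Gstp1), chr20:13606684-13606743 (Gstt1), chr1:253231589-253231648 (Gsto1) and chr4:175254945-175255004 (Mgst1). Gsta2 probe 1 also lists the transcript of a near-identical alpha gene, and the Gstp1 probe that of Gstp2, so these signals may be shared between copies. By accession the probe called Gsta3 (chr9:20051658-20051717) is now Gsta1 in RefSeq, while a probe called Yc2 is now Gsta3. The file names are kept here. Exon and untranslated region positions of the probes were not analysed here.

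Levels are log2 processed signal relative to the 75th percentile of all probes on the same array, so 0 marks that percentile, and levels of different probes are not compared. A probe was called at an adjusted p under 0.05 from limma with Benjamini-Hochberg adjustment over all probes tested. MEHP arrays 1 and 2 differed by less than the noise between repeated spots of 1 array (0.818 times, against a median of 2.41 within groups) and were counted as 1 sample, leaving n = 3 for MEHP. MEHP 3 lay close to Control 2 (1.34 times the noise) and MEHP 4 close to DEHP 3 (1.33 times). The EHO arrays were dim, with 46.1% to 63.5% of spots well above background against 63.9% to 79.8% elsewhere. Every group was hybridised on a slide of its own and scanned on its own, so an effect of the slide cannot be told apart from that of the compound. With whole testes, fewer cells of a type and less RNA per cell cannot be told apart either.

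Gsta2 was the member that stood furthest from control, and its mean level ordered the groups as control, TOTM, EHO, MEHP and DEHP on both probes. Control and TOTM, and MEHP and DEHP, are neighbours whose arrays overlapped. Probe 1 read 1.52, 1.38, 2.01 and 1.21 on the 4 control arrays and 1.74, 1.06, 1.35 and 1.22 on the TOTM arrays. With EHO it read 0.48, 0.08, -0.42 and 0.78, and with DEHP -1.02, -0.70, -1.27 and -1.70. All 4 EHO arrays lay below every control and TOTM array, and all 4 DEHP arrays lay below every EHO array. Of all probes, 7.16% were separated downward in this way for EHO against control and 9.03% for EHO against TOTM. The share for DEHP against EHO was not counted. These are readings of Gsta2 probe 1. With MEHP probe 1 read -1.88 and -2.10 on arrays 1 and 2, 1.21 on array 3 and -1.42 on array 4. MEHP 3 was therefore at the lower edge of the control arrays, while the other MEHP arrays lay within or below the DEHP readings.

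Probe 2 repeated this order of means over a wider span, but its EHO arrays overlapped the TOTM arrays. It read 0.31, 0.14, 1.07 and 0.13 on control arrays, 0.74, -0.14, 0.37 and 0.28 with TOTM, and 0.09, -0.67, -1.95 and -0.13 with EHO. With DEHP it read -3.56, -2.46, -3.38 and -5.51, and with MEHP -5.31, -5.27, 0.38 and -3.13. It was well above background on all control, TOTM and EHO arrays but on only 1 of 4 DEHP arrays and 2 of 4 MEHP arrays, so the lowest readings are near the limit of the array. The probes correlated at r = 0.97 across the 19 samples.

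**Figure D1:**
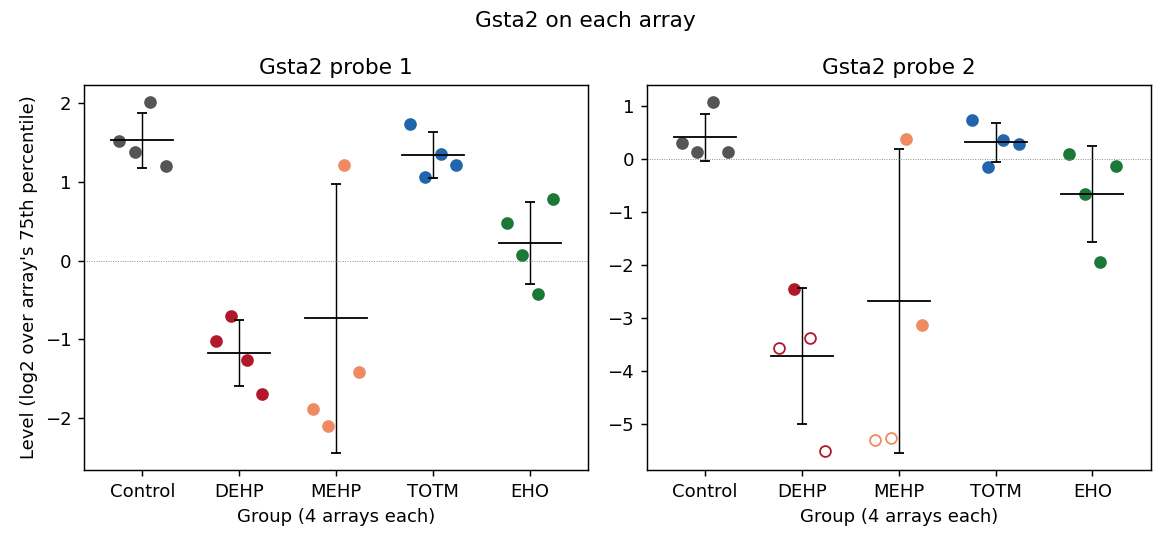
Gsta2 on each array. The y axis is the log2 level relative to the array's 75th percentile, points are arrays, open points were not well above background, and bars are the mean and SD (MEHP 1 and 2 counted as 1 sample). The 4 EHO arrays sit below all 4 control arrays on both probes, and MEHP 3 sits with the controls on both.

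As a description, DEHP differed from control by -2.70 ± 0.49 (SE) log2 on probe 1, 6.50-fold, and by -4.14 ± 0.87 on probe 2. With normexp background correction and quantile normalization the DEHP values were -1.98 on probe 1 and -1.99 on probe 2. MEHP differed by -2.26 ± 0.53 and -3.09 ± 0.94, or by -1.63 and -1.40 with that processing. In the fit reported, the Gsta2 probes had the lowest values among 27773 probes in both comparisons. Just above them came Svs5 (-2.27) and Cyp11b1 (-2.15) with DEHP and a predicted gene, RGD1564190 (-2.02), then Svs5 (-1.76) with MEHP. Leaving out MEHP 3 moved the MEHP differences to -3.23 ± 0.33 and -4.62 ± 0.73, and leaving out MEHP 3 and 4 to -3.52 ± 0.43 and -5.70 ± 0.86, which then rest on 1 sample whose arrays were not well above background on probe 2.

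Gsta2 was not called in any of the 4 comparisons that were tested. TOTM and EHO against control reuse the control arrays on which Gsta2 was chosen, and MEHP against DEHP compares the groups of that choice. The p-values of Gsta2 in these comparisons are therefore not free of the choice. TOTM differed from control by -0.18 on probe 1 (95% interval -1.22 to 0.85, adjusted p = 1.0) and by -0.10 on probe 2 (-1.93 to 1.74, adjusted p = 1.0). EHO differed by -1.30 (-2.33 to -0.27, adjusted p = 0.057) and by -1.07 (-2.91 to 0.76, adjusted p = 0.35), with the EHO arrays below all control arrays on both probes. That separation downward was shared by 7.16% of all probes, and the median of all probes in this comparison was -0.16. Without MEHP 3 the probe 1 difference was again -1.30, the SE of the DEHP difference on that probe went from 0.49 to 0.27, and the adjusted p for EHO was 0.0096. It was 0.032 without EHO 4. Across 36 alternative settings the probe 1 adjusted p ran from 0.0096 to 0.30, and 6 of the 36 called it.

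The monoester was set against its parent diester at the same mass dose. MEHP minus DEHP was 0.44 on Gsta2 probe 1 (95% interval -0.68 to 1.56, adjusted p = 1.0) and 1.05 on probe 2 (-0.93 to 3.03, adjusted p = 1.0). The sign turned without MEHP 3, to -0.53 and -0.49. The upper bounds are wide, and these intervals do not show that the esters acted alike. EHO minus TOTM was -1.11 on probe 1 (-2.15 to -0.08, adjusted p = 0.088, or 0.015 without MEHP 3), with the EHO arrays below all TOTM arrays, and -0.98 on probe 2 (-2.81 to 0.85, adjusted p = 0.39). The separation downward on probe 1 was shared by 9.03% of all probes.

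**Figure D2:**
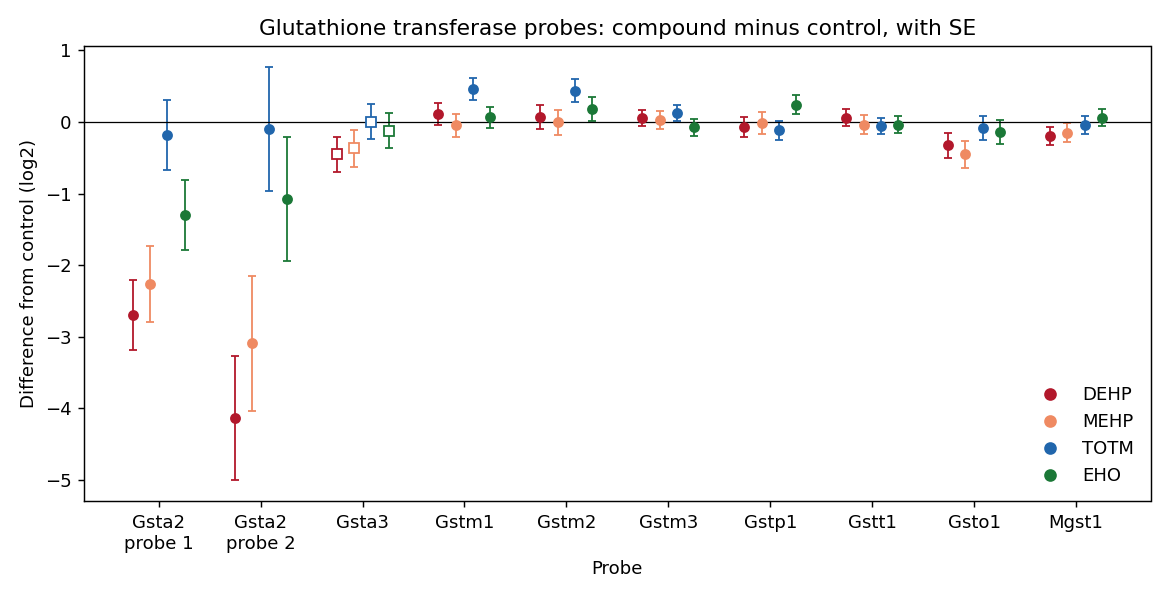
Difference of each probe from control for the 4 compounds (log2, with the SE of the fit). Open squares are Gsta3, whose control spots were all flagged and are kept here. The Gsta2 differences with DEHP and MEHP lie between -2.26 and -4.14, while all other members lie between -0.45 and 0.46.

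Over the members, 0 of the 9 probes tested were called with TOTM, where 0.00720% of all probes were called, and 0 of 9 with EHO, where 24.4% were called. Of all probes, 17.7% were called lower and 6.69% higher with EHO, and median scaling turned that split, to 2753 lower of 9559 calls, as the median of all probes moved from -0.16 to 0.37. For MEHP against DEHP 0 of 10 probes were called (1.07% of all probes), and for EHO against TOTM 0 of 10 (21.9%). The median difference of the members was -0.06 with TOTM and -0.04 with EHO, beside medians of -0.04 and -0.16 over all probes. As a description, 5 of the 9 probes (of 8 genes, with both Gsta2 probes counted and Gsta3 left out) were lower than control with DEHP and 8 with MEHP, where the member medians were -0.07 and -0.05 beside -0.04 and -0.05 over all probes. Without MEHP 3 the MEHP count was 5 of 9, as Gstm1 (0.12), Gstm2 (0.18) and Gstp1 (0.02) then lay above control. Of all probes, 0% were called with DEHP and 0.900% with MEHP. At an unadjusted p under 0.05 by limma, DEHP had 673 probes (2.42%) and TOTM 2381 (8.57%). DEHP and MEHP share their control arrays.

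Gsta3, an alpha class enzyme whose probe is now assigned to Gsta1, was the other alpha member with a probe. It read 6.42, 6.67, 6.54 and 6.16 on the control arrays, but all 4 control spots carried an outlier flag, so it could not be tested against control. It read 6.21, 5.95, 6.11 and 5.73 with DEHP and 5.29, 5.34, 6.63 and 6.29 with MEHP. MEHP 1 and 2 were the lowest of the 20 arrays and MEHP 3 lay among the controls, as for Gsta2 probe 1. With the flagged spots kept, DEHP was at -0.45 ± 0.24 (SE) from control, MEHP at -0.37 ± 0.26, TOTM at 0.0012 ± 0.24 and EHO at -0.12 ± 0.24. EHO 3, the EHO array with the lowest Gsta2, also had the lowest Gsta3 of that group at 5.77.

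The Yc2 probe, now Gsta3 in RefSeq and outside the rule, was lower than control by 0.52 ± 0.24 with DEHP, without overlap of the arrays. Of all probes, 1.90% were separated downward in that comparison. The Yc2 probe read 3.46 and 3.55 on MEHP 1 and 2, 4.98 on MEHP 3 and 4.44 on MEHP 4, with controls from 4.47 to 4.88. A probe that the files describe as glutathione transferase alpha 4, also outside the rule, was not below control in either group mean, with a difference of 0.13 ± 0.16 with DEHP and 0.08 ± 0.18 with MEHP, although MEHP 1 and 2 were the lowest of the 4 MEHP arrays here too.

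Gsto1, an omega class enzyme that reduces dehydroascorbate and methylated arsenic, was the member nearest to the Gsta2 pattern outside the alpha class. It read 2.83, 3.1, 3.04 and 2.74 on control arrays and 2.66, 2.72, 2.53 and 2.48 with DEHP. The DEHP arrays all lay below the controls, with a difference of -0.33 ± 0.17 (SE); 1.90% of all probes were separated downward there. MEHP read 1.92, 1.97, 2.94 and 2.53, a difference of -0.45 ± 0.18 that became -0.69 ± 0.17 without MEHP 3. TOTM ranged from 2.64 to 3.04 and EHO from 2.58 to 2.99, both overlapping the controls. Neither was called, at -0.09 (-0.45 to 0.27, adjusted p = 1.0) and -0.14 (-0.50 to 0.22, adjusted p = 0.55).

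Mgst1, a microsomal enzyme that also reduces lipid hydroperoxides, varied over a narrower span. It read 2.20, 2.59, 2.40 and 2.22 on control arrays, 2.16, 2.19, 2.20 and 2.06 with DEHP, and 1.97, 2.00, 2.51 and 2.10 with MEHP. The differences from control were -0.20 ± 0.12 (SE) for DEHP, where the arrays just overlapped the controls, and -0.15 ± 0.13 for MEHP. Across the 19 samples the mean of the Gsta2 probes correlated with Gsto1 at r = 0.83, Gsta3 at 0.80 and Mgst1 at 0.71, and at 0.78, 0.77 and 0.58 over the 16 samples other than MEHP. These points share arrays and scaling, so the correlations are descriptions.

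Mu class members showed another order, with TOTM highest. Gstm1, an abundant mu class enzyme of rat liver, read 2.40, 2.12, 2.77 and 2.46 on control arrays and 2.93, 2.69, 2.97 and 3.0 with TOTM. Gstm2 read 2.17, 1.87, 2.63 and 2.16 on control arrays and 2.73, 2.48, 2.67 and 2.72 with TOTM. In both genes 3 of the 4 TOTM arrays lay above every control and TOTM 2 lay below the highest control. TOTM minus control was 0.46 ± 0.15 (SE) for Gstm1 (95% interval 0.14 to 0.78, adjusted p = 0.45) and 0.44 ± 0.17 for Gstm2 (0.09 to 0.79, adjusted p = 0.54), so neither was called. Across alternatives the adjusted p of Gstm1 was never below 0.18, and its difference ran from 0.36 to 0.57.

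With EHO, Gstm1 ranged from 2.38 to 2.66, below all TOTM arrays, a separation shared by 9.03% of all probes. EHO minus TOTM was -0.40 ± 0.15 (95% interval -0.72 to -0.08, adjusted p = 0.060), and median scaling turned its sign, to 0.08. Quantile normalization gave -0.52 with an adjusted p of 0.032. With DEHP and MEHP, Gstm1 and Gstm2 were within 0.11 of control. Gstm3, now Gstm7 in RefSeq, differed from control by 0.05 with DEHP, 0.03 with MEHP, 0.12 with TOTM and -0.08 with EHO. Gstm1 and Gstm2 correlated at r = 0.95 over the 19 samples and Gstm3 with them at 0.71 and 0.70, while no mu member had an r beyond 0.23 in size with the mean of the Gsta2 probes. The mu genes are close in sequence and neighbours on chromosome 2, so these signals may in part be shared.

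**Figure D3:**
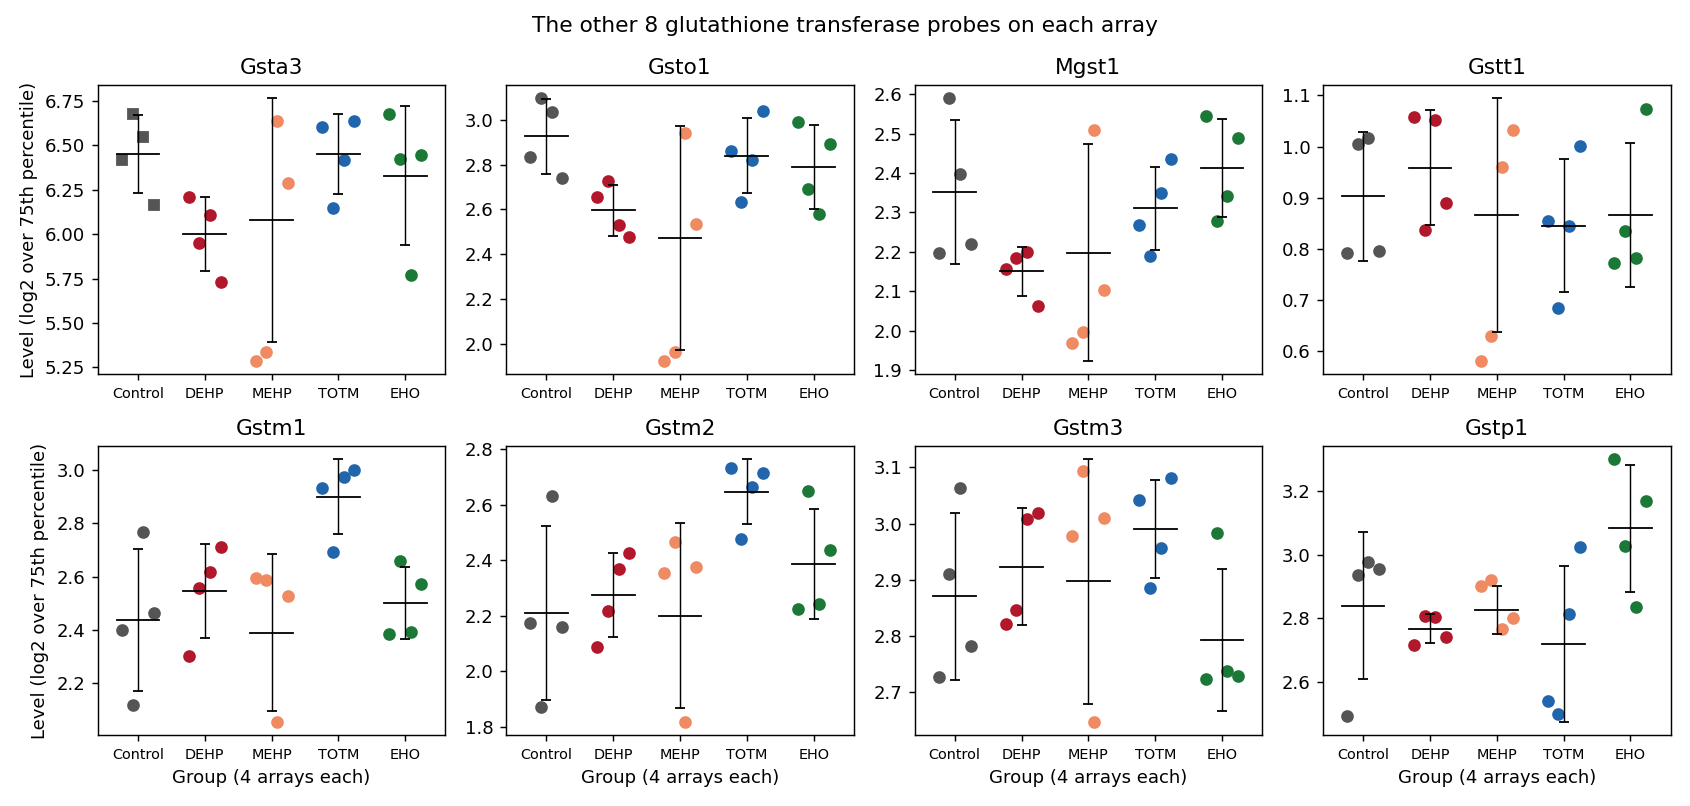
The other 8 probes on each array. The y axis is the log2 level relative to the array's 75th percentile, with its own range in each panel, squares are flagged spots, and bars are the mean and SD. MEHP 1 and 2 are lowest for Gsta3, Gsto1, Mgst1 and Gstt1, and 3 of the 4 TOTM arrays are highest of all for Gstm1.

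Gstp1, the pi class enzyme, read 2.49, 2.94, 2.98 and 2.96 on control arrays and 3.30, 3.03, 2.83 and 3.17 with EHO. EHO minus control was 0.24 (95% interval -0.05 to 0.54, adjusted p = 0.18), and it was called under 1 of 23 alternatives, median scaling, at 0.78 (adjusted p = 0.040). EHO minus TOTM was 0.36 (0.07 to 0.66, adjusted p = 0.062), and was called under 4 of 22 alternatives, among them without EHO 3 (adjusted p = 0.023) and without TOTM 4 (0.040). DEHP and MEHP differed from control by -0.07 and -0.01. Gstt1, the theta class enzyme that acts on small halogenated molecules, ranged from 0.79 to 1.02 on control arrays. It was lower on MEHP 1 and 2 (0.58 and 0.63) than on MEHP 3 and 4 (0.96 and 1.03), and its group differences from control lay between -0.06 and 0.06.

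The authors' deposited table, which lists probes with p under 0.01 for each compound, held 5 of the 10 member probes for DEHP and 6 for MEHP, all lower, and 2 for TOTM, both higher. Of the 41012 probes on the array, the authors' deposited table listed 2.45% for DEHP, 9.33% for MEHP and 8.04% for TOTM. In the authors' deposited table Gsta2 was 5.77-fold lower with DEHP on probe 1 and 12.4-fold on probe 2, and 10.3-fold and 53.4-fold lower with MEHP. The sample made of MEHP arrays 1 and 2 alone lay 11.5-fold below the control mean on probe 1 and at least 11.3-fold below it on probe 2, where neither array was well above background and the lowest detected signal of each array sets the bound. All 3 MEHP samples together gave 4.79-fold on probe 1 and, with 2 of 4 arrays well above background, 8.53-fold on probe 2. For Gsto1 and Gsta3 the authors' deposited table gave 2-fold and 2.2-fold lower with MEHP, where the sample of arrays 1 and 2 lay 1.97-fold and 2.20-fold below. With TOTM the authors' deposited table gave Gstm1 1.43-fold (p = 0.00395) and Gstm2 1.41-fold (p = 0.00881) higher. In its block headed EH, which held 10.3% of the array's probes, the authors' deposited table listed Gsta2 probe 1 as 2.25-fold lower (p = 8.72e-06) and Gsto1 as 1.18-fold lower (p = 0.00984). That block is taken to be EHO only by elimination, since no other label names it.

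The probes most like Gsta2 in level over the 19 samples, of 5937 named probes well above background on all arrays, were both probes of Procr, the endothelial protein C receptor (r = 0.99 each). Tm7sf2 and Ebp, enzymes of cholesterol synthesis, followed at r = 0.98 and 0.96, with Atp4b (0.97), a subunit of the gastric proton pump. Svs5 (0.96), Star (0.95), Stc2 (0.95), Pdyn (0.95) and Ddc (0.94) completed the 10. Star carries cholesterol into mitochondria for steroid synthesis, Stc2 is a secreted glycoprotein, Pdyn is the prodynorphin precursor and Ddc makes dopamine and serotonin. Star read 3.12 to 3.7 on control arrays, 1.25 to 2.22 with DEHP, and -0.02 for the averaged MEHP 1 and 2.

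These probes were picked as the highest correlations over the same samples, so their r values are a description. The lowest correlations were with Ccn1 (-0.61), Ccn2 (-0.57), Padi3 (-0.54), Pla2g5 (-0.54) and Cdc34 (-0.53).

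**Figure D4:**
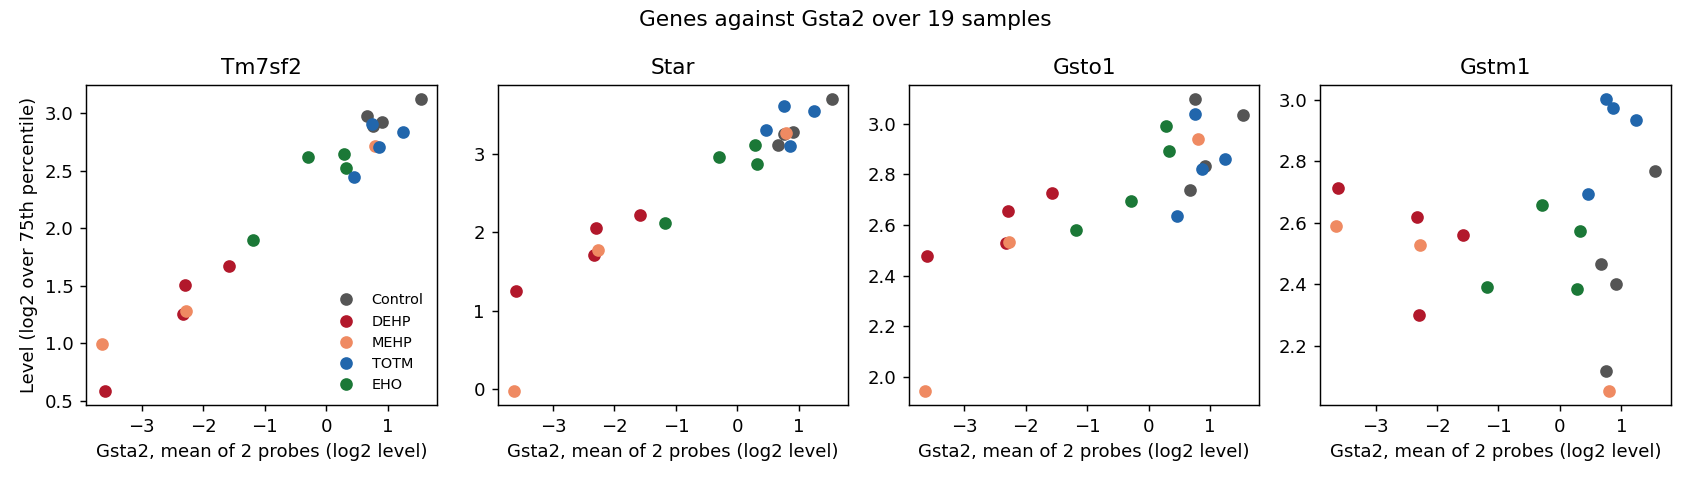
Levels of Tm7sf2, Star, Gsto1 and Gstm1 (y axes, log2 relative to the array's 75th percentile) against the mean of the Gsta2 probes (x axis) over 19 samples coloured by group. Tm7sf2 and Star run along Gsta2 (r = 0.98 and 0.95), Gsto1 less closely (0.83), and Gstm1 does not (0.08).

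Markers of cell types moved with Gsta2 in part. Of the 11 fetal Leydig cell markers listed, all were above background on some array and 10 were tested against control. With DEHP and MEHP all 10 were lower, with medians of -0.70 and -0.83. None was called, but only 0% and 0.900% of all probes were called there, so this absence says little about the markers. With EHO 8 of the 10 were lower and 1 was called. Their summed log2 level was 8.0 to 8.50 on control arrays, 7.29 to 7.92 with DEHP, 6.35 to 8.64 with MEHP, 8.28 to 8.55 with TOTM and 7.80 to 8.33 with EHO. The lowest sums were on MEHP 1 and 2, where Gsta2 probe 1 was also lowest, and the highest was on MEHP 3, where Gsta2 was at the control level. The 7 adrenal cortex markers summed to 2.58 to 3.0 on control arrays, 1.17 to 1.94 with DEHP, 0.92 to 2.99 with MEHP, 2.42 to 2.83 with TOTM and 1.78 to 2.53 with EHO, with the EHO arrays below control, and 2 of the 5 tested were called lower with EHO (median -1.03). The 10 Sertoli cell and 9 gonocyte markers with a probe were all above background on some array. For Sertoli cells, gonocytes, peritubular cells, endothelium, leukocytes, erythroid cells and mesonephric duct, none was called with DEHP, MEHP or TOTM. The shares of all probes called with these compounds were 0%, 0.900% and 0.00720%. With EHO, 3 of 7 peritubular markers were called higher. In that comparison 1 of 10 Sertoli cell markers was called higher and 1 lower, as were 1 and 1 of 6 endothelial markers. Of 9 gonocyte and 6 leukocyte markers 1 each was called lower, of 3 mesonephric duct markers 1 was called higher, and 0 of 3 erythroid and 0 of 8 hepatocyte markers were called, beside 17.7% of all probes called lower and 6.69% higher. The 8 hepatocyte markers summed to 2.48 to 3.72 on control arrays and 2.78 to 3.92 with DEHP, and reached 5.48 on EHO 3. The part of these cell types in the Gsta2 levels was not tested.

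No gene of the 5 lists examined for the rest of the glutathione system was called with TOTM, DEHP or MEHP. Only 0.00720%, 0% and 0.900% of all probes were called there, so this absence says little about the lists. Among 10 other glutathione transferase and related genes tested, 3 were lower with EHO: Gsto2 (-0.79 ± 0.21 SE, adjusted p = 0.025), Gstm6 (-1.29 ± 0.45, adjusted p = 0.047) and Hpgds (-0.91 ± 0.28, adjusted p = 0.035), the haematopoietic prostaglandin D synthase. Under the 4 other scalings Gstm6 was called each time, while Gsto2 and Hpgds were called under 1 of the 4, and the 3 differences were -0.11, -0.58 and -0.15 with normexp and quantile normalization. They were well above background on only 3, 3 and 2 of the 4 EHO arrays. Gstm6 read -3.18 and -1.78 on EHO 1 and 2, the dimmest arrays. It read -0.32 and -0.22 on EHO 3 and 4, within its control range of -0.47 to 0.22. Against TOTM, EHO was lower for Gsto2 (-0.87) and Gstm5 (-0.40) and higher for the brighter probe of Gstt2 (0.48). Of these, Gsto2 and that Gstt2 probe were called under 1 of the 4 other scalings. Another Gstt2 probe, well above background on all 20 arrays, did not repeat the rise (-0.08, adjusted p = 0.58). Gsto2 was at -0.24 (adjusted p = 0.14) with normexp and quantile normalization, and Gstm5 turned to 0.08 under median scaling. Probes annotated as glutathione transferases outside the lists went both ways for EHO against control. RGD1562732, well above background on all 20 arrays, was higher (0.44, adjusted p = 0.0495). LOC686922 was lower (-1.13, adjusted p = 0.035), but it was well above background on 15 arrays, none of them an EHO array. Its EHO readings were near background, so the size of that difference is not known.

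Of 16 genes of glutathione synthesis, reduction and turnover, 1 was lower with EHO, Cth (-0.64 ± 0.22, adjusted p = 0.048), which makes cysteine; its value was 0.02 with normexp and quantile normalization, and 1 of the 4 other scalings called it. Against TOTM, Ggt1 (-0.94) and Chac1 (-0.42), which break down glutathione, and Ggt7 (-0.65) were lower with EHO. Chac1 turned to 0.06 under median scaling, and Ggt1 was at -0.19 (adjusted p = 0.089) with normexp and quantile normalization. Ggt1 and Chac1 were called under 1 of the 4 other scalings and Ggt7 under 3. Gclc and Gclm, the subunits of the rate-limiting enzyme of synthesis, were not well above background on any array.

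Of 13 peroxidases and thiol enzymes, Prdx6 (0.33 ± 0.10, adjusted p = 0.037) and Txn1 (0.50 ± 0.17, adjusted p = 0.045) rose with EHO and Gpx6 fell (-1.83 ± 0.53, adjusted p = 0.031), each with the same sign under every scaling. Gpx6 was called under all 4 other scalings, but its difference shrank to -0.58 with normexp and quantile normalization. Prdx6 and Txn1 were called under 1, and Prdx6 was at 0.12 (adjusted p = 0.27) with that processing. Against TOTM, EHO was higher for Gpx1 (0.45) and Txn1 (0.68) and lower for Gpx6 (-1.54), and of these Txn1 was called under all 4 other scalings and Gpx1 and Gpx6 under 1. Gpx6 against TOTM was at -0.39 with normexp and quantile normalization. It was called in 4 of the 20 fits that left out 1 array. Of 6 exporters of glutathione conjugates, Abcc1 rose (0.53 ± 0.16, adjusted p = 0.033), a call made under 1 of the 4 other scalings (0.38, adjusted p = 0.066, with normexp and quantile normalization). Abcc2 was not well above background on any EHO array and was at least 1.09-fold lower than in control (difference -0.94, adjusted p = 0.030; -0.05 with normexp and quantile normalization, and called under 1 of the 4 other scalings). Of 14 transcription factors tested, Arnt, the partner of the aryl hydrocarbon receptor, was lower with EHO (-1.32 ± 0.40, adjusted p = 0.035) and well above background on 1 of 4 EHO arrays, with a difference of -0.12 under normexp and quantile normalization and a call under 2 of the 4 other scalings. With each of the 20 arrays left out in turn, only Gsto2 and Abcc1, both for EHO against TOTM, were called every time, and of the pair only Abcc1 was also called under all 4 other scalings. Cth was called in 2 of the 20 fits and Gstm6 in 5. The counts stand beside the 24.4% and 21.9% of all probes called in these comparisons, and for EHO against TOTM 13.3% of all probes were called lower and 8.56% higher.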

How the data were processed

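Fetal testis RNA was hybridised to 20 one-colour Agilent arrays. Intensity values are the processed signals deposited by the authors, made with Agilent Feature Extraction 9.5.3.1 per the file headers. The authors deposited a table of fold changes (kept here as a score) and p-values for probes with a p under 0.01; the test behind them is not given in the sources used here.

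Signals were taken as log2 minus each array's 75th percentile over all probes. Spots flagged as outliers were dropped and repeated spots averaged. A probe was kept if some group had it well above background on all its arrays (28133 probes). A mean for each group was fitted to 19 samples with limma (3.58.1, R 4.3.3), with Benjamini-Hochberg adjustment over all probes of a comparison, and was tested on simulated data. Flagged spots were more frequent among control arrays, so percentiles and quantiles were taken over all spots before these were dropped, which was settled with the files in view. Alternatives covered scaling, background, filters, variance, weights, replicate block and leaving out arrays. Every member is named; from each pathway list, genes called in a tested comparison are named; and the genes most like Gsta2 are the 10 highest and 5 lowest correlations. Members and lists were chosen with earlier results of these data known.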

Additional observations from a re-analysis of the deposited data

Results flagged for a closer look

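In 40 sets of 4 arrays (each probe in each group other than MEHP), 2 held an array far from the rest by Dixon's criterion, which chance meets in about 5% of sets. Gstm3 read 2.98 on EHO 2, where the nearest EHO array read 2.74 and the gap took 0.94 of the group's range. Gstp1 read 2.49 on Control 1, where the nearest control read 2.94 and the gap took 0.92 of the range.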

How the results depend on the processing

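The number of probes called depended on the processing. In the fit reported, DEHP had 0 probes called against control, MEHP had 250, TOTM 2 and EHO 6772, while MEHP against DEHP had 301 and EHO against TOTM 6157. Counts that moved by over 1.5 times are given by setting. Normexp with quantile normalization gave 20 for DEHP against control, 392 for MEHP against control and 96 for TOTM against control. Quantile normalization gave 10 for DEHP against control and 63 for TOTM against control. A 75th percentile taken over always detected probes gave 7 for DEHP against control and 40 for TOTM against control. Requiring signal well above background on all arrays gave 5 for DEHP against control, 59 for TOTM against control, 2577 for EHO against control and 3780 for EHO against TOTM. One probe per gene name gave 1 for DEHP against control. A trended robust variance gave 1 for DEHP against control and 25 for TOTM against control. Fitting the 2 groups only gave 18 for DEHP against control, 122 for MEHP against control, 3 for EHO against control and 1151 for EHO against TOTM. Keeping outlier spots gave 79 for DEHP against control and 114 for TOTM against control. MEHP 1 and 2 as separate samples gave 1 for DEHP against control and 27 for TOTM against control. Weighting arrays, where limma stopped before its tolerance was reached, gave 41 for DEHP against control, 1991 for MEHP against control, 106 for TOTM against control, 950 for EHO against control, 1150 for MEHP against DEHP and 2718 for EHO against TOTM. Without control 2 and MEHP 3, calls numbered 8 for DEHP against control and 0 for TOTM against control. Median scaling gave 85 for MEHP against control, 0 for TOTM against control and 56 for MEHP against DEHP. Without MEHP 3 and 4, calls numbered 137 for MEHP against control and 73 for MEHP against DEHP. With no filter on dim probes the counts were 1 for TOTM against control and 11736 for EHO against control. With the replicate block, which does not pair litters here, the counts were 27 for TOTM against control, 2882 for EHO against control and 3473 for EHO against TOTM. Without EHO 1 and 2, calls numbered 247 for EHO against control and 1140 for EHO against TOTM. Leaving out each array in turn gave 0 to 19 for DEHP against control, 151 to 273 for MEHP against control, 0 to 32 for TOTM against control, 881 to 11910 for EHO against control, 177 to 341 for MEHP against DEHP and 1914 to 12391 for EHO against TOTM. The EHO count was 881 without control 1, 1027 without EHO 1 and 11910 without EHO 4.

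Same-numbered arrays of different groups had a median correlation of deviations of 0.011 over 40 pairs, against 0.020 over 120 pairs of different number, so the numbers were not taken to pair litters. No member was called with TOTM or for MEHP against DEHP under 34 settings. At least 1 was called under 5 of 34 settings for EHO against control and 7 of 34 for EHO against TOTM. The differences with DEHP and MEHP against control carried no test; without MEHP 3 and 4, Gstt1 was at -0.30 and Gsto1 at -0.98 with MEHP. The following uncalled member differences changed sign. Median scaling turned, for TOTM against control, Gstt1 (0.0034) and Mgst1 (0.019), and for EHO against control, Gstm3 (0.46), Gstt1 (0.50) and Gsto1 (0.40), and for MEHP against DEHP, Gstm3 (0.022), and for EHO against TOTM, Gsta3 (0.36), Gstm1 (0.080), Gstm2 (0.22), Gstm3 (0.28) and Gsto1 (0.43). Arrays weighted turned, for TOTM against control, Mgst1 (0.0019), and for EHO against control, Gstm1 (-0.023) and Gstt1 (0.032), and for MEHP against DEHP, Gsta2 probe 1 (-0.22), Gstm2 (0.066), Gstm3 (0.064), Gstt1 (0.0022) and Mgst1 (-0.054). Leaving out control 2 and MEHP 3 turned, for TOTM against control, Mgst1 (0.038), and for EHO against control, Gstm1 (-0.043), and for MEHP against DEHP, Gsta2 probe 1 (-0.53), Gsta2 probe 2 (-0.49), Gsta3 (-0.20), Gstm1 (0.012), Gstm2 (0.12), Gstm3 (0.10) and Mgst1 (-0.11). Normexp with quantile normalization turned, for EHO against control, Gstm1 (-0.055) and Mgst1 (-0.042), and for MEHP against DEHP, Mgst1 (-0.022), and for EHO against TOTM, Mgst1 (-9.3e-05). Quantile normalization turned, for EHO against control, Gstm1 (-0.086) and Mgst1 (-0.088), and for EHO against TOTM, Gstt1 (-0.042) and Mgst1 (-0.031). A 75th percentile taken over always detected probes turned, for EHO against control, Gstm1 (-0.091) and Mgst1 (-0.094), and for EHO against TOTM, Gstt1 (-0.11) and Mgst1 (-0.031). Leaving out EHO 1 and 2 turned, for EHO against control, Gstt1 (0.025). Leaving out MEHP 3 and 4 turned, for MEHP against DEHP, Gsta2 probe 1 (-0.82), Gsta2 probe 2 (-1.57), Gsta3 (-0.69), Gstm1 (0.044), Gstm2 (0.14), Gstm3 (0.11) and Mgst1 (-0.17). MEHP 1 and 2 as separate samples turned, for MEHP against DEHP, Gsta3 (-0.11), Gstm3 (0.0082) and Mgst1 (-0.0063). Leaving out 1 array turned the sign within these ranges: -0.24 to 0.12 for Gsta2 probe 2 in TOTM against control, -0.092 to 0.038 for Mgst1 in TOTM against control, -0.043 to 0.17 for Gstm1 in EHO against control, -0.11 to 0.0014 for Gstt1 in EHO against control, -0.53 to 0.78 for Gsta2 probe 1 in MEHP against DEHP, -0.49 to 1.47 for Gsta2 probe 2 in MEHP against DEHP, -0.20 to 0.15 for Gsta3 in MEHP against DEHP, -0.24 to 0.012 for Gstm1 in MEHP against DEHP, -0.16 to 0.12 for Gstm2 in MEHP against DEHP, -0.083 to 0.10 for Gstm3 in MEHP against DEHP, -0.11 to 0.10 for Mgst1 in MEHP against DEHP, -0.24 to 0.064 for Gsta3 in EHO against TOTM, -0.049 to 0.072 for Gstt1 in EHO against TOTM and -0.12 to 0.019 for Gsto1 in EHO against TOTM. The number of arrays limits the precision, and dim EHO arrays leave low signals near background. The cause of these changes was not tested.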
